A study of Mus musculus with 24 samples.

Results

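The liver clears bile acids and other organic anions through carriers on both faces of the hepatocyte, and the 10 genes described here encode the main ones. They were taken as a list of named genes in 3 classes, 4 for uptake (Slc10a1, Slco1a1, Slco1a4, Slco1b2), 2 for canalicular export (Abcb11, Abcc2) and 4 for basolateral export (Abcc3, Abcc4, Slc51a, Slc51b). All 10 were measured among 18820 genes, each by 1 probe set. RNA came from 24 mouse livers in 8 groups of 3 animals, with 1 whole-transcript array for each liver, on a C57BL/6 background. The values are deposited log2 expression levels, so that a difference of 1 is a change by a factor of 2 on this scale. The series title is about JNK1 and JNK2 in hepatocytes and cell fate in liver cancer, and the question asked of each pair of groups was whether the carriers' transcripts differed between them.

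Untreated mice of 52 weeks carried either a deletion of NEMO and JNK1 in hepatocytes together with loss of JNK2 (NEMO/JNK livers, labelled as triple knockout), or the label control. Livers of JNK knockouts and of animals labelled control came from mice given the carcinogen diethylnitrosamine, which the liver activates, or with the bile duct ligated, which blocks bile flow. The labels give treatment durations of 40 days for diethylnitrosamine and 28 days for ligation, and no dose or schedule. Untreated mice of 8 weeks were labelled NEMO knockout or NEMO/JNK1 knockout. The floxed genes are deleted by Cre under the albumin promoter, which acts in hepatocytes, whereas Jnk2-/- is an allele of the whole body, so the JNK knockouts are Jnk1LoxP/LoxP with Jnk2-/- and the Cre. The protocols name NEMOf/f and NEMOΔhepa mice as controls, and the labels do not say which of these, or which other genotype, a liver labelled control had. Ages of the treated mice and the sex of all mice are not given in the labels.

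Some livers went against their labels or stood apart. Mapk9, which encodes JNK2, read 2.82 to 3.51 in all 18 livers of the first 6 groups, those labelled control included, and 7.99 to 8.53 in the 8-week livers. Directions against livers labelled control therefore do not bear on the presence of Mapk9. Mapk8, which encodes JNK1, was lower in every JNK or JNK1 knockout group than in its partner, without overlap. Ikbkg, which encodes NEMO, fell by 0.85 (SE 0.15, adjusted p = 0.0043 by limma) in the NEMO/JNK livers, while at 8 weeks both groups carry the NEMO label and no control of that age was analysed. The 8-week livers read 6.80 to 7.26 for Ikbkg where labelled NEMO and 6.76 to 7.02 where labelled NEMO/JNK1, above the 6.43 to 6.47 of the NEMO/JNK livers. Both overlapped control-labelled livers after diethylnitrosamine (6.82 to 7.48) and at 52 weeks (7.0 to 7.48), and lay below those after ligation (7.28 to 7.49). With no control of that age, the array does not settle the labelled loss of NEMO at 8 weeks, and both groups are named by their labels. Replicate 3 of the JNK livers after diethylnitrosamine read 10.38 for Xist, against 2.16 to 3.87 in the other 23, and 2.80 for the Y-linked Eif2s3y, against 6.61 to 7.96. Tests and correlations of the transporters that use it are given with and without it, the correlations by a choice made after seeing the data. Alb, which defines hepatocytes, averaged 13.08 to 13.25 in the 8 groups. The highest value of any probe set was 13.48, so near this top Alb may not show a change in the share of hepatocytes.

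Bile acids enter the hepatocyte from blood through the sodium-dependent carrier NTCP (Slc10a1) and the sodium-independent OATP carriers (the Slco1 genes), which also take up bilirubin, steroid conjugates and drugs. They leave across the canalicular membrane through the bile salt export pump (Abcb11), and conjugated anions through MRP2 (Abcc2). MRP3 (Abcc3), MRP4 (Abcc4) and the organic solute transporter, a heterodimer of OSTalpha (Slc51a) and OSTbeta (Slc51b), return them to blood. Textbook accounts of cholestasis have the nuclear receptor FXR (Nr1h4) induce Abcb11 and both Slc51 genes and lower Slc10a1 through SHP (Nr0b2), and NRF2 raise Abcc4 with Nqo1. In mice Slco1a1 is known as male-predominant and Slco1a4 as female-predominant.

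The start regions of the genes whose transcripts ranged most widely or are partners in 1 carrier are shown first, from RefSeq on GRCm38.p6, each 250 bases before the annotated start, on the gene's own strand. Slc51b (chr9:65422774-65423023, minus strand) and Slc51a (chr16:32487880-32488129, minus strand) encode the subunits of 1 transporter, and Slco1a1 (chr6:141946963-141947212, minus strand) had the widest range of the 10. Capitals mark matches, on either strand, to the nuclear receptor half-site AGGTCA and, in Slc51b, also to TTCNNNGAA, the STAT5 site, at TTCTCGGAA.
Slc51b: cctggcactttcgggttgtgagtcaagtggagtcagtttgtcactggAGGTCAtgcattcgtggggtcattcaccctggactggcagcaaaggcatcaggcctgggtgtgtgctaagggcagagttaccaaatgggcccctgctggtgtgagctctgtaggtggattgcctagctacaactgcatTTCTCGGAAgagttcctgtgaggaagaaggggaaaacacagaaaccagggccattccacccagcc
Slc51a: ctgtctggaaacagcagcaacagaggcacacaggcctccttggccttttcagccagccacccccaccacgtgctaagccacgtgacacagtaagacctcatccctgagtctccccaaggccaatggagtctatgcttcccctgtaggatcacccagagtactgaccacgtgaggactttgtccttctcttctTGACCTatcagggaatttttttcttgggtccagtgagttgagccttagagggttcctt
Slco1a1: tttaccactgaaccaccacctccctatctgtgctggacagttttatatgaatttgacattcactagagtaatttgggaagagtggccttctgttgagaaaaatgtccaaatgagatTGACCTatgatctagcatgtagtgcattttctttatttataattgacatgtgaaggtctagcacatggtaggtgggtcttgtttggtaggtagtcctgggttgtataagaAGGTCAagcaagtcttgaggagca
The windows listed for Abcc4 lie inside the annotated gene, so that only 25 bases around a match to TGACNNNGC, the core of the antioxidant response element that NRF2 binds, are shown for its first (chr14:118706228-118706252) and second (chr14:118676938-118676962) listed start.
Abcc4 start 1: cccgagagGCGGGGTCAgggcgggc
Abcc4 start 2: taatctcgTGACTCTGCcgtggtgg
AGGTCA was found in at least 1 window of 7 of the 9 genes with a window and in 14% of 32851 RefSeq windows of the same length. TGACNNNGC was found in 2 of the 9 genes, Abcc2 and Abcc4, and in 10.2% of windows, and TTCNNNGAA in 3 of the 9 and in 7.02%. The exact FXR element, an inverted repeat of the half-site spaced by 1 base, was found in 0 of the 9 and in 0.00609% of windows, and the exact palindromic HNF1 site in 0 and 0.00913%. The FXR element contains the half-site, so a match to it would count for both. These are matches of letters only, and no binding was measured.

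Across the 24 livers the carriers differed in how widely they ranged, and each class held genes of wider and narrower range. Slco1a1 ranged over 6.73 log2 units (6.52 without the liver of high Xist) and Slc51b over 5.52, wider than the ranges of 99.9% and 99.6% of all genes. Abcc4 ranged over 3.87, Slco1a4 over 3.05, Slco1b2 over 2.60, Abcb11 over 2.39 and Slc10a1 over 2.14. The ranges of Slc51a, Abcc2 and Abcc3 were 1.01, 0.94 and 0.93, near the middle of all genes. A moderated F test among the 8 groups in limma called Slc51b (F = 19.0, adjusted p = 4.81e-05), Slc10a1 (adjusted p = 0.0245) and Slco1a4 (adjusted p = 0.0458), and 22.1% of all genes were called. Slco1a4 lost the call in 18 of 30 alternatives, each leaving out 1 liver (adjusted p up to 0.117), while Slc51b kept it in all 30. Slc10a1 lost it without replicate 3 of the 52-week livers labelled control (0.0560) and without NEMO/JNK1 replicate 2 (0.0521). The groups differ in age, injury and genotype at once, so the test assigns the differences to none of these. The other 7 had adjusted p from 0.0549 for Abcc4 to 0.337 for Abcc3, and without the liver of high Xist Slco1a1 was called as well (adjusted p = 0.00726), beside Slc51b (0.000177), Slco1a4 (0.0119) and Slc10a1 (0.0401).

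**Figure D1:**
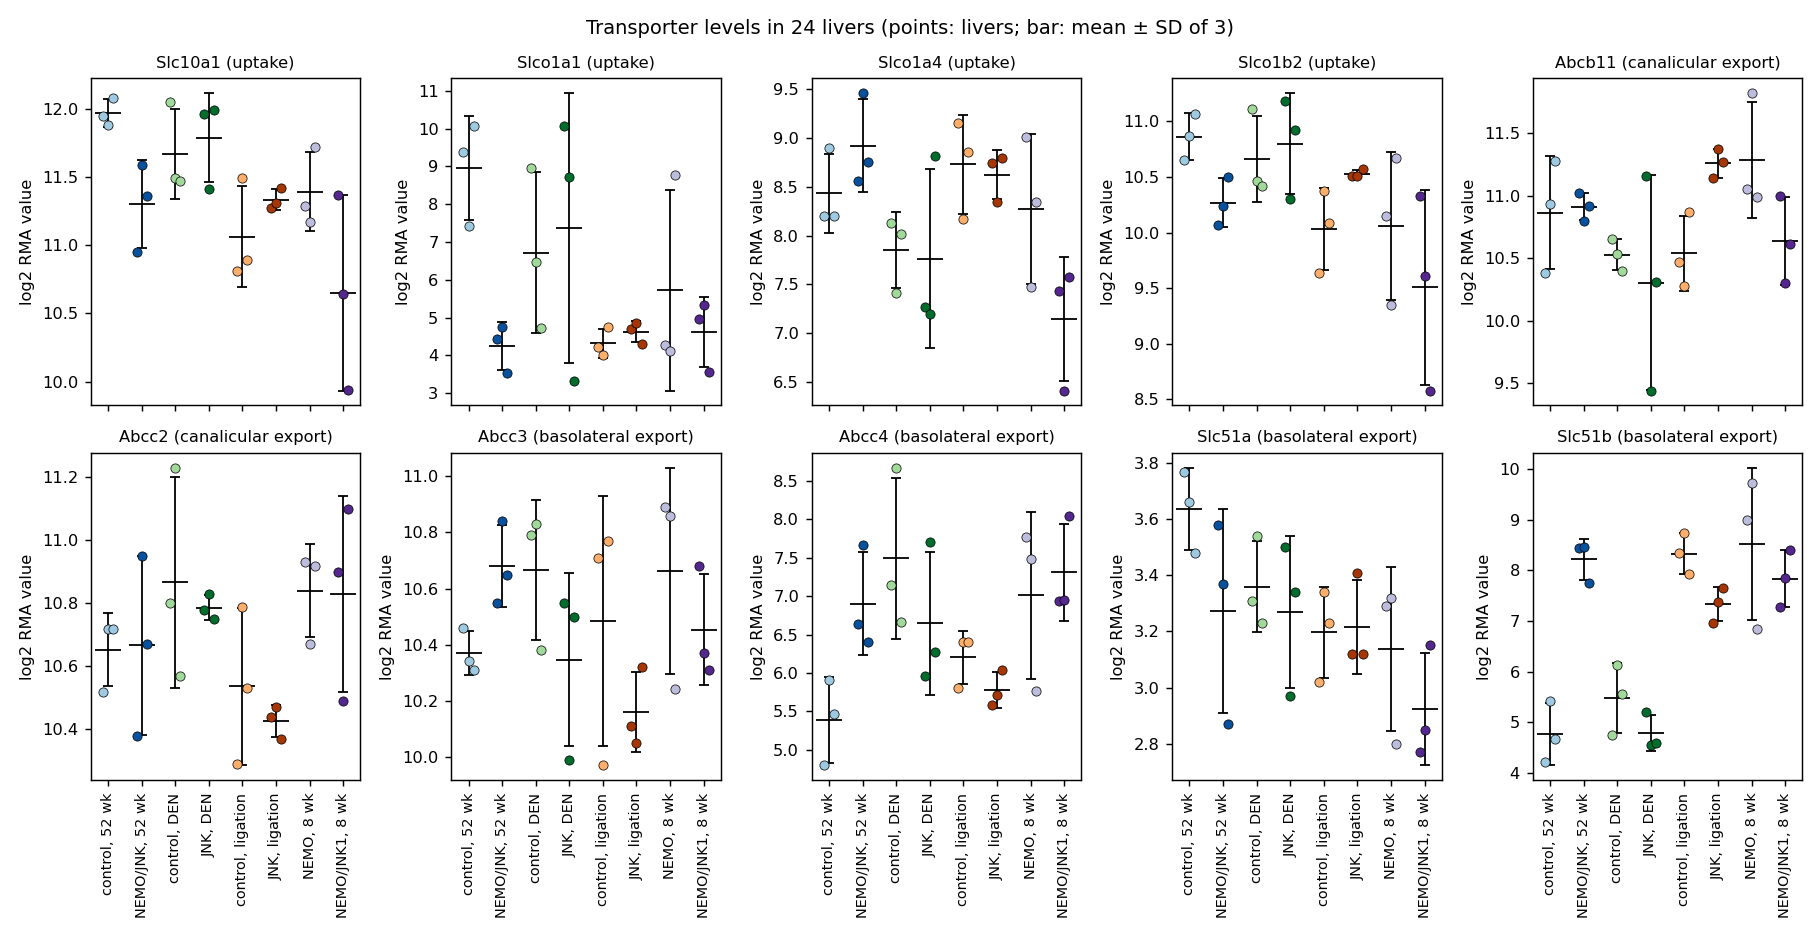
Deposited log2 RMA values (vertical axes, a separate scale for each gene) of the 10 transporters in the 8 groups (horizontal axis); each point is 1 liver and the bar is the mean ± SD of 3. Slc51b lay between 6.84 and 9.73 in the NEMO/JNK, ligated and 8-week livers, and between 4.21 and 6.13 in the other 9 livers; Slco1a1 spread from 3.33 to 10.06 within the JNK livers after diethylnitrosamine.

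Taken as classes, each gene was set relative to its own mean over the 24 livers and the class averaged. Uptake was highest in the 52-week livers labelled control, at 1.11 ± 0.29 (SD, n = 3), and lowest in the livers labelled NEMO/JNK1 at 8 weeks, at −0.97 ± 0.55. Basolateral export was lowest in the same 52-week livers, at −0.77 ± 0.27, and highest in the livers labelled NEMO at 8 weeks, at 0.52 ± 0.80. Its members did not move alike. From the former group to the latter, the mean of Slc51b went from 4.77 to 8.52 and that of Abcc4 from 5.39 to 7.01. Abcc3 went from 10.37 to 10.66 and Slc51a from 3.64 to 3.14. Canalicular export stayed between −0.21 ± 0.16 after ligation in livers labelled control and 0.32 ± 0.16 in the livers labelled NEMO. Part of the span of uptake was Slco1a1: without it the class mean was 0.44 ± 0.15 in 52-week livers labelled control and −0.89 ± 0.54 in the livers labelled NEMO/JNK1. Class means are descriptions and carry no test.

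**Figure D2:**
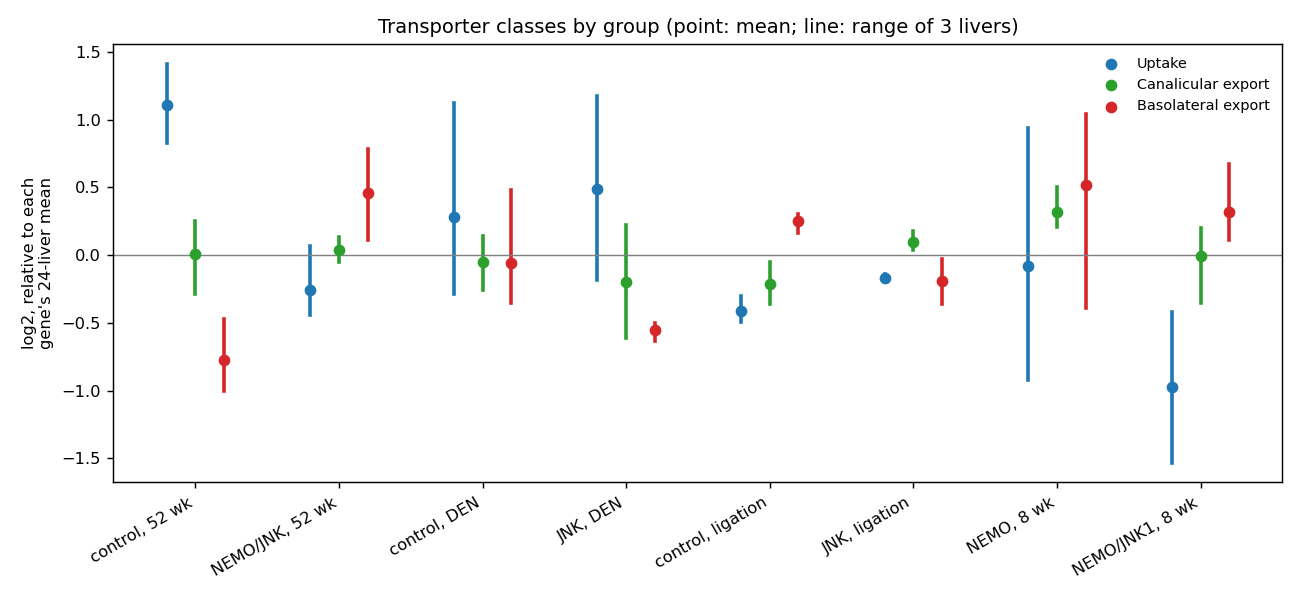
Mean of each transporter class (vertical axis, log2 relative to each gene's mean over 24 livers) in the 8 groups; points are means and lines the range of 3 livers. Uptake runs from 1.11 in the 52-week livers labelled control to −0.97 at 8 weeks, and the canalicular points stay within −0.21 to 0.32.

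At 52 weeks, 3 of the 4 uptake carriers fell and 2 of the 4 basolateral exporters rose in the NEMO/JNK livers against livers labelled control. Those that fell were Slco1a1, with a log2 difference of −4.71, Slc10a1 (−0.67) and Slco1b2 (−0.59), and those that rose were Slc51b (3.46) and Abcc4 (1.51). The other uptake carrier, Slco1a4 (0.49), the exporters Abcc3 (0.31) and Slc51a (−0.36) and both canalicular pumps did not pass the test. In all, 2 of the 10 were called higher and 3 lower, in a comparison where 13.6% of all genes were called higher and 7.90% lower (21.5% in all). In bulk liver, fewer cells of a type and less RNA per cell cannot be told apart.

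Slco1a1, which encodes the uptake carrier OATP1A1, read 9.39, 7.42 and 10.06 in the livers labelled control and 4.44, 4.76 and 3.54 in the NEMO/JNK livers. The groups were far apart, although the control livers themselves spread over more than 2 units. The difference of −4.71 (SE 0.60, 95% interval −6.07 to −3.34) is a factor of 26.2, with adjusted p = 0.00104 by limma, and the call held in all 13 alternatives (0.000128 to 0.0235). On a list of 10 male-biased liver genes, 9 were called lower in the same livers (median −2.95), and the list's mean was 6.58 to 6.95 in them against 8.88 to 9.99 in livers labelled control. Of 8 measured female-biased liver genes, 0 were called higher and 0 lower (median −0.38). The part of either list in the fall of Slco1a1 was not tested.

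Slc10a1, the sodium-dependent bile acid carrier, read 11.95, 11.88 and 12.08 against 10.95, 11.59 and 11.36, without overlap. Its fall of 0.67 (SE 0.17, adjusted p = 0.0222 by limma) was a factor of 1.59. The call was lost in 5 of 13 alternatives, with adjusted p up to 0.0978 when all 24 arrays were fitted together, and when replicate 1 or 3 of either group was left out (0.0545 to 0.0722). Slco1b2, which encodes OATP1B2, the carrier for bilirubin conjugates and many drugs, read 10.65, 10.87 and 11.07 against 10.07, 10.24 and 10.50. It fell by 0.59 (SE 0.16, adjusted p = 0.0287) and lost the call in 6 of 13 alternatives, up to an adjusted p of 0.255 with all arrays. Leave-outs that ended it were control replicates 2 and 3 and NEMO/JNK replicates 1 and 2 (0.0678 to 0.100).

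Slco1a4, which encodes OATP1A4, read 8.20, 8.90 and 8.20 in livers labelled control and 8.56, 9.46 and 8.75 in NEMO/JNK livers, which overlap. The difference of 0.49 (SE 0.27, 95% interval −0.11 to 1.10, adjusted p = 0.222) did not pass. The 3 Slco1 genes described here lie close together on chromosome 6 and some are similar in sequence, so a probe set can pick up a neighbour's transcript, which was not tested.

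Neither canalicular pump passed the test. Abcb11, which encodes the bile salt export pump, read 10.38, 10.93 and 11.28 in livers labelled control and 11.02, 10.80 and 10.92 in NEMO/JNK livers. The difference was 0.05 (SE 0.21), and its interval of −0.43 to 0.53 leaves room for a change of about that size either way. Abcc2, which exports conjugated bilirubin, read 10.52, 10.72 and 10.72 against 10.38, 10.95 and 10.67, a difference of 0.01 (interval −0.35 to 0.38). Their adjusted p were 0.885 and 0.959 by limma. With each array centred on its median, which moved the median of all genes from −0.05 to −0.37, both signs turned, to −0.28 for Abcb11 and −0.31 for Abcc2, neither called.

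Slc51b, the smaller subunit of the organic solute transporter, gave the largest rise of the 10. It read 4.21, 5.43 and 4.67 in livers labelled control and 8.44, 8.47 and 7.75 in NEMO/JNK livers, a gap of over 2 units between the nearest livers. The rise of 3.46 (SE 0.31, 95% interval 2.76 to 4.15) is a factor of 11, with adjusted p = 0.000189 by limma, from 0.000114 to 0.00145 over its 13 alternatives. The partner subunit Slc51a read 3.77, 3.66 and 3.48 against 3.58, 3.37 and 2.87. Its difference of −0.36 (SE 0.19, adjusted p = 0.200) did not pass, and with each array centred it was called, at −0.69 (adjusted p = 0.0158). Centring raised the calls over all 18820 genes from 4048 to 10512. All 24 Slc51a values lay between 2.77 and 3.77, and with no detection call whether any was above background cannot be said.

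Bile duct cells also make the organic solute transporter, and all 10 measured markers of these cells rose in the NEMO/JNK livers. Their mean was 7.87 to 8.40 against 4.54 to 5.22 in livers labelled control, and Krt19 rose by 4.40 (SE 0.28). Their part in the rise of Slc51b was not tested. In the 8-week livers Slc51b read 6.84 to 9.73 where the same marker mean was 4.73 to 6.01. Macrophage markers rose too, 7 of 10, with a mean of 8.43 to 9.76 against 7.40 to 7.95. Among hepatocyte markers 0 of 14 rose and 1, F9, fell.

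Abcc4, the basolateral exporter of bile acids with glutathione and of cyclic nucleotides, read 4.8, 5.91 and 5.46 in livers labelled control and 6.64, 7.67 and 6.40 in NEMO/JNK livers. The rise of 1.51 (SE 0.36, 95% interval 0.70 to 2.33) is a factor of 2.85, with adjusted p = 0.0174 by limma. It lost the call with all 24 arrays fitted together (0.0655) and without control replicate 1 (1.22, adjusted p = 0.0614). Abcc3, an exporter of glucuronides, read 10.46, 10.34 and 10.31 against 10.55, 10.84 and 10.65, without overlap but by only 0.31 (SE 0.13, adjusted p = 0.112), and by −0.02 with centred arrays. Of the 10 transporters, 3 were higher and 3 lower without overlap between the groups, and 20.9% and 20.3% of all genes were so (41.2% together).

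**Figure D3:**
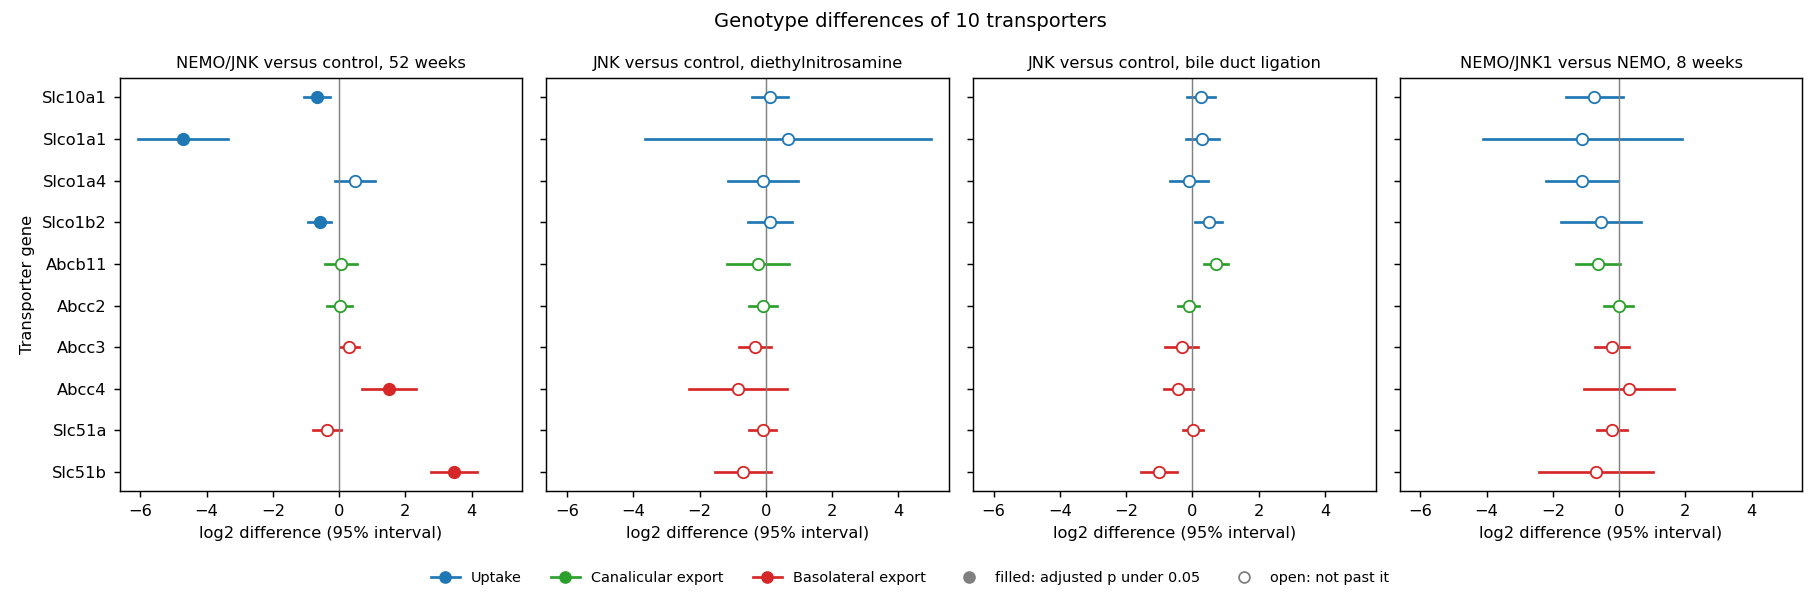
Log2 differences (points, horizontal axis) with 95% intervals (lines) of the 10 transporters in the 4 genotype comparisons, coloured by class; filled points had an adjusted p under 0.05. The filled points are all at 52 weeks, from −4.71 for Slco1a1 to 3.46 for Slc51b, and the Slco1a1 interval after diethylnitrosamine spans −3.66 to 4.98.

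After diethylnitrosamine, none of the 10 transporters was called between JNK livers and livers labelled control, and all 10 overlapped between the groups. Slc51b read 4.75, 6.13 and 5.56 in livers labelled control and 5.20, 4.56 and 4.6 in JNK livers, a difference of −0.69 (SE 0.36). Abcc4 read 7.15, 8.67 and 6.66 against 5.96, 7.71 and 6.27, a difference of −0.85 (SE 0.62). limma called 0 of 18820 genes here (0%), with 781 at an unadjusted p under 0.05, of which 0 were transporters, and 9.47% of all genes did not overlap between the groups.

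Slco1a1 spread within both groups after diethylnitrosamine, at 8.96, 6.46 and 4.73 in livers labelled control and 10.06, 8.73 and 3.33 in JNK livers. The difference of 0.66 (SE 1.82, interval −3.66 to 4.98) says little in either direction. The lowest of these, 3.33, is the liver of high Xist, whose Slco1a4 of 8.82 was the highest of its group. Without it the difference was 2.68 for Slco1a1 and −0.62 for Slco1a4, against −0.09 with it, and those of the other 8 transporters lay between −0.66 and 0.07. None was called either way, with adjusted p of at least 0.985 with the liver and 0.997 without it. The canalicular pair read 10.65, 10.53 and 10.40 against 11.16, 9.44 and 10.31 for Abcb11, and 10.57 to 11.23 against 10.75 to 10.83 for Abcc2.

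After bile duct ligation, JNK livers had an Abcb11 level above and a Slc51b level below livers labelled control, in values that did not overlap but did not pass the test. No transporter was called, in a comparison where 1.35% of all genes were (0.797% higher, 0.558% lower). Abcb11 read 10.47, 10.28 and 10.87 in livers labelled control and 11.14, 11.37 and 11.27 in JNK livers, a difference of 0.72 (SE 0.16, interval 0.35 to 1.09, adjusted p = 0.0901). Slc51b read 8.34, 8.73 and 7.92 against 6.97, 7.38 and 7.65, a difference of −1.0 (SE 0.24, interval −1.54 to −0.46, adjusted p = 0.102). Slco1b2 read 9.64, 10.37 and 10.09 against 10.51, 10.51 and 10.57, a difference of 0.49 (SE 0.18, adjusted p = 0.251).

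Among all genes, 20.7% did not overlap between these groups, and 3 of the 10 transporters did not. Mouse identifiers carry a prefix that may mark an animal series: replicate 3 of the livers labelled control shares that of the JNK livers, and replicates 1 and 2 do not. With the prefix as a block, which sets only that replicate 3 against the JNK livers, Abcb11 differed by 0.39 and Slc51b by −0.59. Without that replicate 3, prefix and genotype cannot be told apart. Both genes were then called by limma, Abcb11 at 0.88 (adjusted p = 0.0176) and Slc51b at −1.20 (adjusted p = 0.0367). Over all genes, 559 were called without it and 255 with it. Bile duct cell markers averaged 6.57 to 7.17 in JNK livers and 5.58 to 6.23 in livers labelled control. Of the 10 markers, 2, Prom1 and Muc1, were called higher and 0 lower, with differences from −1.46 to 2.57. Their part in the Slc51b difference was not tested. Abcc3 and Abcc4 differed by −0.32 (SE 0.21) and −0.43 (SE 0.19), and Slc10a1, Slco1a1, Slco1a4, Abcc2 and Slc51a by −0.11 to 0.30, with adjusted p of 0.364 or more.

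Whether the JNK difference depended on the injury was tested by an interaction over 12 arrays, in which 0.0478% of all genes and none of the 10 transporters were called. For Abcb11 the JNK difference after ligation exceeded that after diethylnitrosamine by 0.94 (SE 0.46, interval −0.07 to 1.96, adjusted p = 0.735 by limma), and by 0.95 without the liver of high Xist. For Slc51b the value was −0.31 (SE 0.47, interval −1.34 to 0.73), and −0.41 without that liver. For Slco1a1 it was −0.36, with the widest interval of the 10, −4.81 to 4.09, and −2.38 (adjusted p = 0.727) without that liver.

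Between the injuries, ligated livers had the higher Slc51b in both genotypes. In livers labelled control Slc51b was at 7.92 to 8.73 after ligation and 4.75 to 6.13 after diethylnitrosamine, higher by 2.85 (SE 0.35, adjusted p = 0.0136 by limma). In JNK livers it was at 6.97 to 7.65 and 4.56 to 5.20, higher by 2.54 (SE 0.24, adjusted p = 0.0117), and by 2.45 (adjusted p = 0.0376) without the liver of high Xist. It was the only transporter called in either comparison, where 2.48% and 1.08% of all genes were called (1.74% and 0.77% higher, 0.739% and 0.313% lower). These animals differ in treatment, in its duration and possibly in age. In livers labelled control the call was lost without ligated replicate 1 (2.85, adjusted p = 0.0741) and with only the ligated liver of the shared identifier prefix (2.45, adjusted p = 0.291). In JNK livers it was lost when any 1 ligated liver was left out, with adjusted p of 0.0539, 0.0844 and 0.0712.

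The means of the uptake carriers were lower after ligation than after diethylnitrosamine except that of Slco1a4, and none of the 4 passed the test on all arrays with equal weights. In livers labelled control, Slco1a1 differed by −2.40 (SE 0.91), Slco1b2 by −0.63 (SE 0.24), Slc10a1 by −0.60 (SE 0.23) and Slco1a4 by 0.88 (SE 0.29), with adjusted p of 0.156 to 0.219. All 3 ligated livers labelled control read 4.0 to 4.74 for Slco1a1, and the 3 JNK livers 4.31 to 4.85. Without the liver of high Xist, the difference in JNK livers was called, at −4.78 for Slco1a1 (adjusted p = 0.0181) and 1.39 for Slco1a4 (adjusted p = 0.0494). With it, the values were −2.76 (SE 1.57) and 0.86 (SE 0.43). Slc10a1 in JNK livers was called with array weights (−0.62, adjusted p = 0.0137) and without diethylnitrosamine replicate 2 (−0.64, adjusted p = 0.0229). Abcb11 (0.92, adjusted p = 0.0259) and Abcc2 (−0.33, adjusted p = 0.0366) were called there with array weights. The gains with array weights and without replicate 2 came where calls over all genes rose as well, from 204 to 2482 and to 1326. Without the liver of high Xist, calls over all genes fell to 97. Abcc4 differed by −1.29 (SE 0.47, adjusted p = 0.195) in livers labelled control, where the groups did not overlap. Among the 10, 4 did not overlap between injuries in livers labelled control and 2 in JNK livers, beside 24.9% and 19.9% of all genes.

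Fibroblast and stellate cell markers averaged 8.21 to 8.77 in the ligated livers labelled control and 6.46 to 6.61 after diethylnitrosamine. Bile duct cell markers averaged 5.58 to 6.23 against 4.75 to 5.57, with 3 of 10 called higher and 0 lower. Differences of single markers ranged from −2.86 to 1.74. What part either had in the Slc51b difference was not tested.

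At 8 weeks, no transporter passed the test between the livers labelled NEMO/JNK1 and those labelled NEMO, and 0 of 18820 genes were called (0%), with 1442 at an unadjusted p under 0.05. Slco1a4 came closest, at 9.01, 7.47 and 8.34 in livers labelled NEMO and 7.43, 6.41 and 7.58 in livers labelled NEMO/JNK1, a difference of −1.13 (SE 0.46, adjusted p = 0.646). Slc10a1 read 11.29, 11.17 and 11.72 against 11.37, 10.64 and 9.94 (difference −0.75, SE 0.36), and Abcb11 differed by −0.65 (SE 0.28). All 10 overlapped between the groups, where 14.4% of all genes did not. Identifier prefixes, which may mark an animal series, differ between these groups, so that prefix and genotype cannot be told apart.

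Replicate 3 of the livers labelled NEMO stood away from its group mates, at 8.78 for Slco1a1 against 4.27 and 4.11, 6.84 for Slc51b against 8.99 and 9.73, and 5.77 for Abcc4 against 7.77 and 7.49. Its Krt19 was 7.33 against 5.29 and 4.50. Without it, the Slco1a1 difference turned from −1.11 to 0.42, the Abcc4 difference from 0.30 to −0.32, and the Slc51b difference moved from −0.69 to −1.53, with adjusted p of 0.477 to 0.844. Slc51b averaged 8.52 ± 1.5 and 7.83 ± 0.56 (SD, n = 3) in the 8-week groups, beside 8.33 ± 0.40 and 7.33 ± 0.34 in ligated livers labelled control and JNK.

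In the order of group means, Slc51b split into a high set and a low set. The high set ran from the livers labelled NEMO (8.52) through ligated control-labelled (8.33), NEMO/JNK (8.22) and NEMO/JNK1-labelled livers (7.83) to ligated JNK livers (7.33). Below a gap lay the control-labelled (5.48) and JNK livers (4.79) after diethylnitrosamine and the 52-week livers labelled control (4.77). Neighbours within each set overlapped in their ranges, and the ligated JNK livers did not overlap the set below. For Slco1a1, all 8 neighbouring groups overlapped in order, from 8.96 ± 1.37 in 52-week livers labelled control to 4.25 ± 0.63 in NEMO/JNK livers. For Slc10a1 the order ran from 11.97 ± 0.10 to 10.65 ± 0.71 in the livers labelled NEMO/JNK1, again with all neighbours overlapping. Abcc4 was highest in control-labelled livers after diethylnitrosamine (7.49 ± 1.05) and lowest in 52-week livers labelled control (5.39 ± 0.56).

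The transporters were also set against other genes over the 24 arrays, as a description, since livers share their groups and their normalisation. Over 7533 genes searched, Slc10a1 followed Aqp9, a channel for glycerol and urea, most closely (Pearson r = 0.94, and 0.91 with group means removed), then Pex16 (0.92), a peroxisome assembly gene, and Slco1b2 (0.92, and 0.89 with group means removed). Slco1a1 followed Nudt7 (0.84), Elovl3 (0.83) and Mup6 (0.82, and 0.89 without the liver of high Xist). Nudt7 and Elovl3 are both members of the male-biased list, so they and the list's mean are not independent. The r of Slco1a1 with the mean of that list was 0.94, or 0.90 with group means removed. Without the liver of high Xist these were 0.93 and 0.82. Its neighbour Slco1a4 gave r = −0.29 with it, −0.41 with group means removed, and −0.06 with them removed and that liver left out. Abcc4 followed Nqo1, the quinone reductase widely used as an NRF2 target, at r = 0.92 (0.88 with group means removed). Then came Cbr1, a carbonyl reductase, at 0.84, and Slc48a1 at 0.82. The stretches printed for Abcc4 hold the motif named for NRF2, and the relation to Nqo1 says nothing of binding there.

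Slc51b followed B4galt5 (r = 0.91, and 0.89 with group means removed), Gca (0.91) and Slc6a8 (0.91, but 0.41 with group means removed). With its partner Slc51a r was −0.29 over all livers but 0.63 with group means removed. With the mean of the bile duct cell markers it was 0.32, or −0.25 with group means removed. Abcb11 followed Amdhd1 (0.85), Unc119b (0.79) and Gspt1 (0.78), and its r with Abcc2, on the same membrane, was −0.16. Without the liver of high Xist, the other correlations given over all livers moved by at most 0.02.

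**Figure D4:**
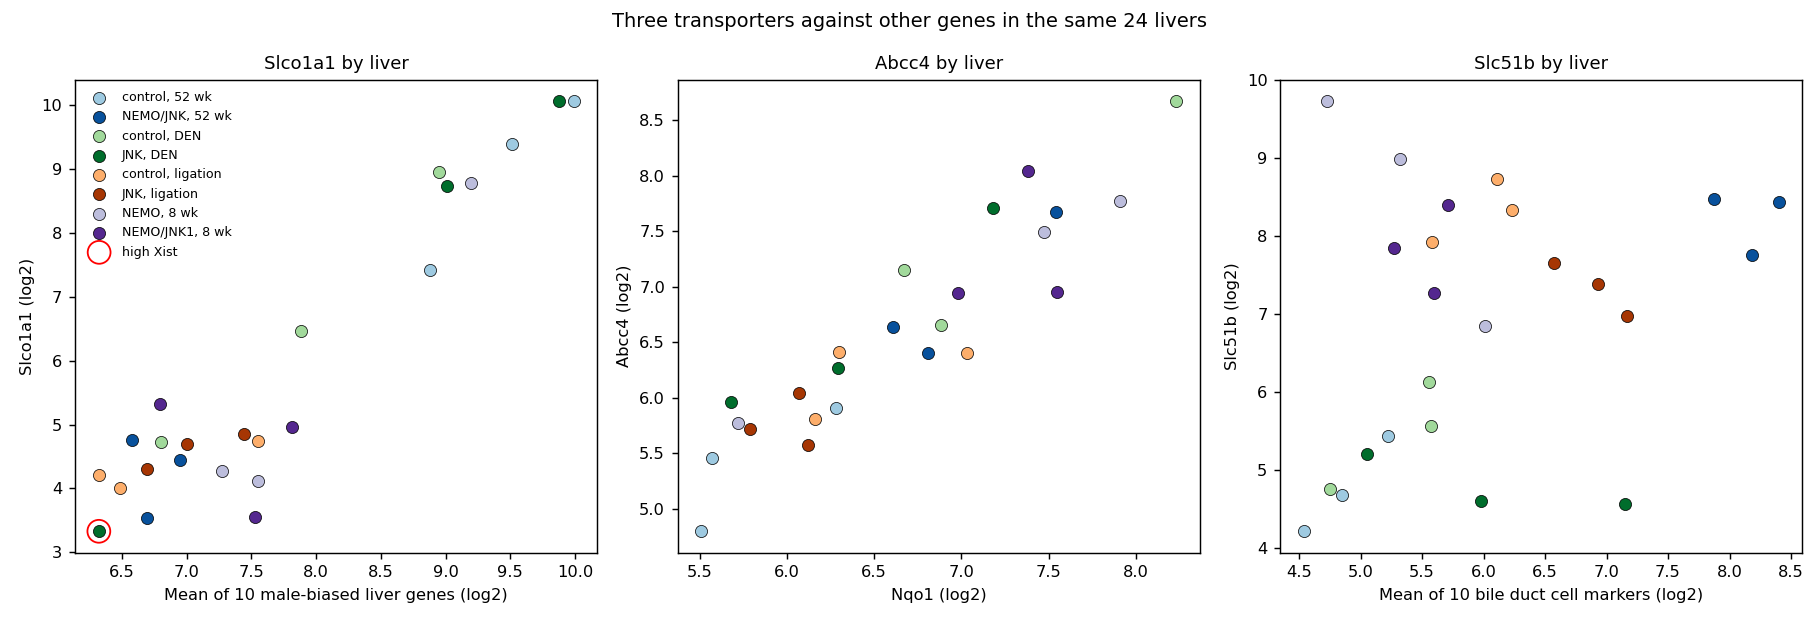
Log2 values of Slco1a1, Abcc4 and Slc51b (vertical axes) against the mean of 10 male-biased liver genes, Nqo1 and the mean of 10 bile duct cell markers (horizontal axes); each point is 1 of 24 livers, coloured by group, and the red ring marks the liver of high Xist. Points rise together for Slco1a1 (r = 0.94) and Abcc4 (r = 0.92) and scatter for Slc51b (r = 0.32), whose 8-week livers are high at low marker means.

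Other genes of the pathway were followed from lists, whose counts at 52 weeks stand beside 13.6% of all genes called higher and 7.90% called lower. Among 10 other canalicular transporters, 3 rose and 3 fell at 52 weeks (median 0.03, all genes −0.05). Abcb1a, the drug exporter P-glycoprotein, rose by 3.27 (SE 0.21) and the sterol exporters Abcg5 by 1.85 (SE 0.20) and Abcg8 by 1.42 (SE 0.24), while the cation exporter Slc47a1 fell by 1.0 (SE 0.14) and Abcg2 by 0.58 (SE 0.14). Abcb4, which moves phospholipid into bile, differed by 0.05 (SE 0.14). After ligation, Abcg8 was higher by 0.96 (SE 0.11, adjusted p = 0.00824 by limma) and Abcb1a lower, at −1.0 (SE 0.12, adjusted p = 0.0101) in JNK livers.

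Among 12 other uptake carriers, 2 rose and 2 fell at 52 weeks, where 13.6% of all genes were called higher and 7.90% lower. Counts this small do not set the list apart. Slco3a1 was up by 1.70 (SE 0.17) and Slco2b1 down, at −1.08 (SE 0.17). Among 7 other Abcc genes, 3 rose and 1 fell: Abcc5 by 1.20 (SE 0.12) and Abcc1 by 1.15 (SE 0.13) higher, and Abcc6, a hepatocyte carrier of the ATP release pathway, lower by 1.49 (SE 0.17). Of 16 bile acid synthesis genes, 1 rose and 9 fell (median −0.71), among them the sterol 12alpha-hydroxylase Cyp8b1, which fell by 2.42 (SE 0.37), and the conjugating enzyme Baat, which fell by 1.41 (SE 0.14). Cyp7a1, the rate-limiting enzyme of the classic pathway, differed by 0.65 (SE 0.26, adjusted p = 0.112).

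Of 16 measured regulators, 2 rose and 2 fell at 52 weeks, beside 13.6% of all genes called higher and 7.90% lower, and counts this small do not set the list apart. Nr1h4, which encodes FXR, fell by 0.93 (SE 0.15, adjusted p = 0.00314) from 9.58 ± 0.05 to 8.65 ± 0.27 (SD, n = 3), and Vdr rose by 1.64 (SE 0.16). Nr0b2, which encodes SHP, differed by −0.82 (SE 0.29, adjusted p = 0.0781). Of 12 scaffold and trafficking genes of the canalicular membrane, 3 rose and 1 fell, led by Ezr at 2.89 (SE 0.20), which bile duct cells carry too. In ligated livers compared with diethylnitrosamine, Nr1h4 differed by −0.62 (SE 0.18, adjusted p = 0.122) in livers labelled control and by −0.84 (SE 0.12, adjusted p = 0.0307) in JNK livers, where Cyp8b1 differed by −2.18 (SE 0.29, adjusted p = 0.0296). Both lost the call without the liver of high Xist, at −0.78 (adjusted p = 0.0848) for Nr1h4 and −2.24 (adjusted p = 0.0779) for Cyp8b1.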

How the data were processed

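Each of 24 mouse livers has 1 array. The authors deposited log2 values for 35556 probe sets, made with RMA per the submitters' processing notes. Which program and chip definition they used is not given here. RMA corrects background, equalises quantiles and summarises probes, and its values compress low signals. Array medians were 4.52 to 4.66, and arrays of a group correlated at r = 0.963 to 0.994. There is no detection call, and precision is limited by the 3 arrays a group.

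Of the probe sets, 21218 had 1 symbol, 1881 several and 12457 none; 21185 matched GRCm38.p6 by Entrez identifier. They gave 18820 genes, and the probe set with the highest mean stood for the 1386 genes with several. Differences between groups were tested in limma 3.58.1 (R 4.3.3), two-sided, on each comparison's own arrays, with Benjamini-Hochberg adjustment over all genes and calls at 0.05; the procedure was tested on simulated data. Mice have different identifiers, and nothing else is said of how animals were chosen. The rule for named genes took all 10 transporters, the targeted genes, the 3 called genes of smallest p from each list, defining markers, and the 3 most correlated genes with a mean of at least 6. Members and lists were chosen with earlier results of these data known. Genes without a single-symbol probe set were not analysed here. Deviations of same-numbered replicates correlated at r = 0.36, 0.3 and 0.04 for JNK against control after diethylnitrosamine, and at −0.19 to 0.14 elsewhere. No comparison had all its pairs above 0.1, and numbers were not taken to pair the animals. Alternatives were another fit, normalisation, filter, probe rule, weights, blocks and leaving out each liver.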

Additional observations from a re-analysis of the deposited data

How the results depend on the processing

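Of 228 counts of called transporters under an alternative, 203 stayed within 1.5 times the main count. Counts of 0 that stayed at 0 are among the 203. After diethylnitrosamine and at 8 weeks the main fit called 0 of all genes, so agreement there says little. Of 1282 values of single transporters 39 lost and 32 gained a call, with 0 called values reversed and 78 uncalled values changing sign. At 52 weeks, fitting all 24 arrays together left 1 transporter higher and 1 lower, against 2 and 3; leaving out 1 liver gave 1 to 2 higher and 1 to 3 lower (1 higher without control replicate 1; 1 lower without control replicate 3 or NEMO/JNK replicate 1). JNK against control after ligation had 1 higher with array weights, and leaving out control replicate 3 gave 1 higher and 1 lower, against 0 and 0. Without that replicate, identifier prefix and genotype cannot be told apart. Ligation against diethylnitrosamine gave 0 higher in livers labelled control with only the shared identifier prefix, and 0 to 1 when a liver was left out (0 without ligated replicate 1), against 1. In JNK livers, against 1 higher and 0 lower, array weights gave 2 and 2, and leaving out a liver gave 0 to 2 higher and 0 to 1 lower (0 higher without any ligated liver; 2 higher and 1 lower without the liver of high Xist; 1 lower without diethylnitrosamine replicate 2). Among the 8 groups, against 3 called, centring and array weights each gave 7, and leaving out a liver gave 1 to 5 (1 without control replicate 3 at 52 weeks or NEMO/JNK1 replicate 2; 5 without JNK replicate 2 after diethylnitrosamine or NEMO replicate 3). The cause of these moves was not tested, apart from the fewer animals of the leave-outs. For ligation against diethylnitrosamine in JNK livers, calls over all genes rose from 204 to 2482 with array weights. Without diethylnitrosamine replicate 2 they rose to 1326, and without the liver of high Xist they fell to 97.

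The replicate numbers were not taken to pair the animals. With the replicate number as a block, ligation against diethylnitrosamine in JNK livers gave 0 higher against 1, as the call for Slc51b was lost (adjusted p = 0.0814), and Slco1a4 was called at 52 weeks (0.49, adjusted p = 0.0353). Slc51a was also called with centring at 52 weeks (−0.69, adjusted p = 0.0158) and Abcc3 with a new quantile normalisation (0.49, adjusted p = 0.0257). A filter on genes with no group mean of at least 5 removed Slc51a, which gave no value under it.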
